A study of Rattus norvegicus with 16 samples.

Results

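The comparison is between skeletal muscle of the rat, labelled TA, collected at 6 hours and the same muscle collected at 1 hour. All arrays titled TA were taken, 12 of the 16 arrays in the series. Of these, 8 carry a collection time of 6 hours (TA_6h) and 4 a collection time of 1 hour (TA_1h). The remaining 4 arrays are of another muscle and were not used. Total RNA was hybridised to single-colour short oligonucleotide arrays, which report 1 intensity for each of 8799 probe sets, 59 of them array controls. The labels name no strain, sex, age, treatment, surgery or genotype for either group, and they do not say what event the hours are counted from. They spell out neither TA nor the number of animals. The numbers and letters in the titles form 6 numbered samples on a pair of arrays each, 4 at 6 hours and 2 at 1 hour. For TA_6h numbers 1 and 2 the first array has no letter, and joining it with the array lettered b is an inference. No label states that a number is a separate animal, so the p-values below measure the spread between numbered samples, which may be technical.

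Several gene programmes in muscle follow the hours after an animal is handled, killed or woken, and they frame the description below. Immediate early genes such as Egr1, Jun and Atf3 encode transcription factors that are switched on quickly by mechanical, metabolic or injury signals, while heat shock genes encode chaperones that refold damaged proteins. The circadian clock runs in muscle as a loop in which Bmal1 drives the genes of its own repressors and of output factors such as Dbp, so that Bmal1 and Dbp peak at opposite times of day. Muscle also shifts between sugar and fat as fuel through enzymes such as Cpt1b and its liver-type isoform Cpt1a. Fibroblasts and tendon cells of muscle lay down collagens and small leucine-rich proteoglycans. In whole muscle, fewer cells of a type and less RNA per cell cannot be told apart.

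Skeletal muscle genes were bright throughout. Myh4, the fastest adult myosin heavy chain, had intensities of 24760 and 29010 in the 1-hour samples and 21390, 18170, 33050 and 35450 in the 6-hour samples 1 to 4. All 17 fibre markers on the array passed the filter on low values, and their summed intensity per array ran from 237900 to 471200 at 1 hour and from 216100 to 479800 at 6 hours. The probe sets for Acta1 (skeletal actin) and Ckm (muscle creatine kinase) were scattered within a number and are not used further. On the arrays 1a and 1b of TA_1h Acta1 gave 7.17 and 13790, and on arrays 3a and 3b of TA_6h Ckm gave 0.0219 and 5979.

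The arrays did not form 2 sets by hour. On 5 of them, namely array 2b of TA_1h and every array of TA_6h numbers 3 and 4, the control for beta-actin had a middle over 3′ ratio of 0.146 to 0.390, a low value of which is a usual sign of shortened RNA or label. On the other 7 arrays it was 0.815 to 1.28. The Gapdh middle over 3′ ratio was not lower on the 5 arrays, at 0.959 to 1.52 against 0.161 to 1.11 on the 7. The beta-actin 5′ over 3′ ratio overlapped, at 0.308 to 0.876 on the 5 and 0.66 to 1.01 on the 7. The first principal component of the tested probe sets, with 41.7% of the variance, put these 5 arrays at scores from 29.0 to 46.7 and the other 7 at -33.1 to -18.2. The median absolute log2 difference between the 5 and the 7 arrays was 0.34, against 0.22 between the hours. Both hours had arrays on each side, and the mean beta-actin ratio was 0.552 at 6 hours and 0.550 at 1 hour (two-sided exact permutation p = 1 over 15 regroupings, which cannot go below 0.0667). The beta-actin 5′ over 3′ ratio was 0.758 at 6 hours and 0.638 at 1 hour (exact permutation p = 0.6), and the Gapdh middle over 3′ ratio was 0.767 and 0.452 (exact permutation p = 0.2). Where the split moves a difference, values are also given within the 7 arrays (3 of them at 1 hour) and within the 5 arrays, where a single array, TA_1h 2b, stands for 1 hour. What sets the 5 arrays apart was not tested.

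**Figure D1:**
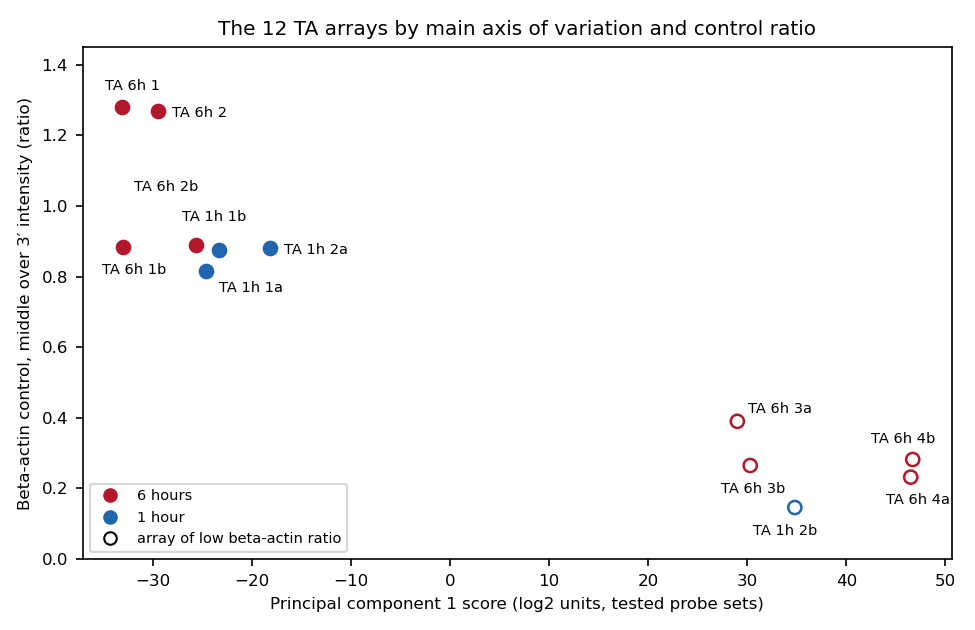
Each point is 1 of the 12 TA arrays, with its score on the first principal component (log2 units, horizontal) and its beta-actin middle over 3′ intensity ratio (vertical). The 5 arrays with ratios of 0.146 to 0.390 (open points), among them TA_1h 2b, lie at scores of 29.0 or more, and the 6-hour (red) and 1-hour (blue) arrays are on both sides.

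Genes far apart between the array sets, picked after their values were seen, are given as examples. Between the 5 and the 7 arrays, the glycolytic shuttle enzyme Gpd1 differed by -5.41 on the log2 scale, the complex I subunit Ndufs1 by -3.99, the glycogen phosphorylase kinase subunit Phka1 by -3.71 and the mitochondrial channel Vdac1 by -3.26. For Gpd1 and Ndufs1 1 of the 5 arrays lay at the floor, so these differences are lower limits in size. The ubiquitin ligase Trim63 differed by 2.31. Over 7169 tested probe sets, 854 differed more than 2-fold along this split. A pair of single arrays also stood away from its partner. TA_1h 2b differed from 2a over 2-fold in 895 of 4114 genes, the other pairs in 341 to 498.

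Array 1b of TA_6h differed from the unlettered array 1 in the following genes, picked after their values were seen. The load-responsive ankyrin repeat gene Ankrd1 read 907 on array 1 and 23780 on array 1b, and the stress factor Atf3 read 715 and 15430. The inducible chaperone Hspa1a read 1501 and 14010, the Z-disc protein Csrp3 1584 and 14520, the growth factor Hbegf 146 and 1772, the GTPase Rrad 283 and 3096, the nuclear receptor Nr4a3 109 and 1060, and the adhesion receptor Pvr 129 and 1969. In the other direction, the lipase inhibitor G0s2 read 793 and 161 and the clock output factor Dbp 1128 and 389. For Ankrd1, Atf3, Hspa1a and Dnaja1 array 1b was above every other TA array, whose highest readings were 2813, 2171, 3261 and 2584. In this pair 59 genes differed over 4-fold and 10 over 8-fold, more than the 1 to 4 over 8-fold in the 4 pairs other than TA_1h number 2, which had 19. Genes that rest on array 1b are given with and without it.

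No probe set passed the test between the hours. With limma on log2 intensities, 0 of 7169 probe sets (0% called) had an adjusted p under 0.05, and every limma adjusted p was 0.9994 or higher. At an unadjusted limma p under 0.05 there were 261 probe sets (3.64%), 166 higher at 6 hours (2.32%) and 95 lower (1.33%). The counts given below for gene lists, with 1 probe set per gene, stand beside these shares over all probe sets. All 8 of the 6-hour arrays lay above all 4 of the 1-hour arrays for 46 probe sets (0.642%) and below them for 45 (0.628%). By numbered sample, 512 (7.14%) were wholly higher and 377 (5.26%) wholly lower at 6 hours. The log2 differences (6 hours minus 1 hour) had a median of 0.01, with 90% of them between -0.63 and 0.61, and the median limma standard error (SE) was 0.31. The differences below are therefore descriptions of these 6 samples. Each is on the log2 scale unless called a fold, with ± for the limma SE over 4 and 2 numbered samples.

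**Figure D2:**
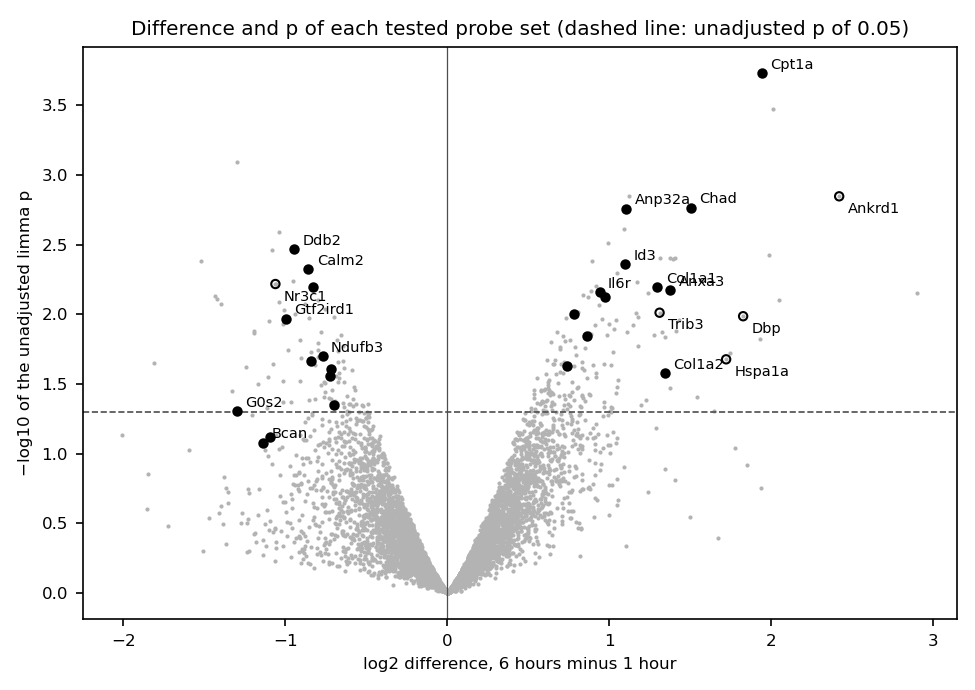
Each point is a tested probe set, with its log2 difference (6 hours minus 1 hour) and the −log10 of its unadjusted limma p. Filled black points are the 24 genes with the largest differences among those whose arrays do not overlap between the hours, open points are further genes of the text, and Cpt1a has the smallest p at 0.000185.

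Cpt1a, the liver-type enzyme that admits long-chain fatty acids into mitochondria, had the smallest unadjusted p. Its intensity was 94.97 and 90.02 in the 1-hour samples and 293.5, 328.2, 330.3 and 501.9 in the 6-hour samples. Every 6-hour array was above every 1-hour array, of which 2 of 4 lay at the floor of 66.0 to which low values were raised, so the difference is a lower limit. It was 3.84-fold (log2 1.94 ± 0.28), with 1.52 within the 7 arrays and 2.63 within the 5. Over the other fits it ran from 1.32 to 2.63 with limma adjusted p-values down to 0.0371, the last with each array taken as its own sample. Cpt1b, the muscle-type isoform, differed by 0.13 ± 0.21, with -0.04 within the 7 arrays and 0.60 within the 5.

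Type I collagen genes were among those whose arrays did not overlap between the hours. Col1a1, the alpha 1 chain of type I collagen, read 8281 and 7992 at 1 hour and 19100, 14310, 18110 and 32180 at 6 hours. Its partner Col1a2 read 3776 and 3929, then 16100, 13680, 4804 and 8598. Both chains were thus higher in each 6-hour sample, by 2.46-fold (log2 1.30 ± 0.34) and 2.54-fold (1.34 ± 0.48). Within the 5 arrays Col1a2 differed by 0.57 and within the 7 by 2.01, while Col1a1 differed by 1.41 and 1.12. Of the other 3 probe sets of Col1a1, 1 gave 1.43, 1 gave 1.35 and 1 gave 0.60.

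Chad (chondroadherin, a collagen-binding protein of cartilage and tendon) read 122.8 and 76.16 at 1 hour and 300.9, 320.6, 198.4 and 294.8 at 6 hours, without overlap. The difference was 2.83-fold, with a limma SE of 0.31 on the log2 scale, and is a lower limit because 3 of 4 arrays were above the floor at 1 hour. Fmod (fibromodulin, which binds collagen fibrils) had the largest difference of any tested probe set and was named after its values were seen. Its probe set X82152_at read 65.99 and 79.88 at 1 hour and 1142, 796, 140.9 and 675.3 at 6 hours, a difference of 2.90 ± 0.78, with 1 of 4 arrays above the floor at 1 hour. Its brighter probe set gave 0.39, so the probe sets of Fmod disagree.

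Of 38 tested members of the extracellular matrix and fibroblast list, 0 passed the test, 5 were higher at an unadjusted p under 0.05 and 0 lower, beside 2.32% and 1.33% of all probe sets. Their differences were positive in 29 and had a median of 0.26, where all 4114 genes had a median of 0.02. The median was 0.35 within the 7 arrays and 0.27 within the 5, where all tested probe sets had medians of -0.02 and 0.14. Beyond the collagens, the 5 include Thbs4 (thrombospondin 4, of tendon and muscle matrix, 1.54 ± 0.61), Postn (periostin, 1.23 ± 0.49) and Bgn (biglycan, 0.61 ± 0.22). Thbs4 read 177.6 and 239.1 at 1 hour and 1339, 830.1, 427.7 and 271.4 at 6 hours. Numbers 1 and 2 were far above the rest, and the difference was 2.38 within the 7 arrays and 0.46 within the 5. Tnc (tenascin C, -0.49) and Timp1 (a protease inhibitor, -0.02) were not higher at 6 hours. The summed intensity of the list ran from 80120 to 126700 on 6-hour arrays and from 67730 to 84490 on 1-hour arrays.

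Further genes without overlap of arrays had varied roles. Anxa3, a calcium-dependent membrane-binding annexin, lay at the floor on all 1-hour arrays and read 97.38, 202.5, 202.9 and 215.8 at 6 hours, at least 2.60-fold higher (log2 1.38 ± 0.37). Its other probe set differed by 0.01. Id3 and Id1, inhibitors of basic helix-loop-helix factors such as MyoD, differed by 1.10 ± 0.27 and 0.74 ± 0.26. Id3 read 459 and 692.5 at 1 hour and 976 to 1332 in the 6-hour samples, and both genes kept their direction within the 7 arrays (0.94 and 1.02) and the 5 (0.99 and 0.16). Anp32a, a nuclear inhibitor of protein phosphatase 2A, differed by 1.11 ± 0.23, while its other probe set gave -0.41. Il6r, the receptor for interleukin 6, read 537.4 and 367.7 and then 759.4 to 978.9 (0.94 ± 0.25). Rnase1 (a secreted ribonuclease, 0.97), Aqp2 (a water channel known from kidney, 0.86) and Cyp4b1 (a cytochrome P450, 0.78) complete the 12. Cyp4b1 differed by 0.49 without array TA_1h 2b, and by 0.58 within the 7 arrays and 1.46 within the 5.

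Among lower genes G0s2, an inhibitor of the triglyceride lipase of lipid droplets, had the largest difference without overlap of arrays. It read 2035 and 1889 at 1 hour and 357, 1076, 677.9 and 1545 at 6 hours. All 6-hour arrays were below all 1-hour arrays, with the lowest value on array 1b. The difference was -1.30 ± 0.55, and -1.01 without array 1b. Calm2, which encodes calmodulin, the calcium sensor of the cell, read 5372 and 5073 and then 2750, 3092, 3128 and 2585. The 6-hour samples were closely spaced and 1.81-fold lower (-0.86 ± 0.21), with -0.79 within the 7 arrays and -0.93 within the 5.

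Ddb2, which recognises damaged DNA, read 158.6 and 154.1 at 1 hour and 69.14 to 91.93 at 6 hours (-0.95 ± 0.22). The factor Gtf2ird1 differed by -0.995 ± 0.29, with its other probe set at 0.50, and the retinol dehydrogenase Rdh16 by -1.10, with its other probe set at 0.61. Bcan (the brain proteoglycan brevican) differed by -1.14, and both Bcan and Rdh16 had unadjusted limma p-values above 0.05 despite their separate arrays. Within the 7 arrays Bcan differed by -0.35 and Rdh16 by -0.51, and within the 5 by -1.76 and -1.86. Setsip (-0.84), Spink1l (-0.83), the complex I subunit Ndufb3 (-0.77), the seminal vesicle protein gene Svs3a (-0.72), Gskip (a binding partner of glycogen synthase kinase 3, -0.72) and the ubiquitin ligase Rchy1 (-0.70) followed. The differences were smaller within the 7 arrays than within the 5 for Setsip (-0.27 and -1.83), Spink1l (-0.48 and -1.44), Ndufb3 (-0.43 and -1.46) and Rchy1 (-0.34 and -1.16). Spink1l was above the floor on 2 and Ddb2 on 5 of the 8 arrays at 6 hours, so both differences are lower limits in size.

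**Figure D3:**
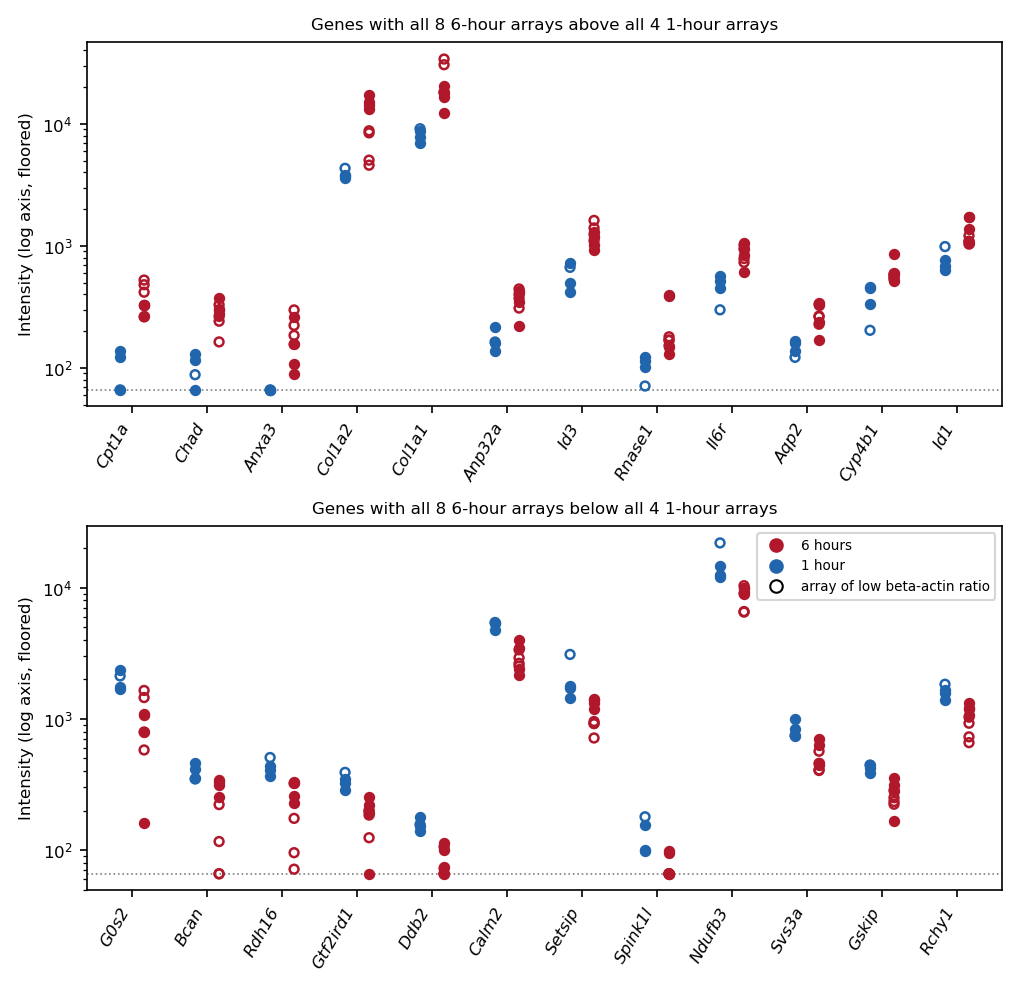
Intensities (log axis, values under 66.0 raised to it, dotted line) of the 12 higher and the 12 lower genes with the largest differences among genes whose arrays do not overlap between the hours. Each point is 1 array, red at 6 hours and blue at 1 hour, and open points are the 5 arrays of low beta-actin ratio, and Col1a1 is at 14310 or more in each 6-hour sample against 8281 or less at 1 hour.

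Over all 6 numbered samples, genes of fat use had mostly positive differences and those of respiration mostly negative ones. Of 36 tested genes of fatty acid uptake and oxidation, 0 passed, 3 were higher at an unadjusted p under 0.05 and 0 lower. Their differences were positive in 24, with a median of 0.17 where all probe sets had 0.01. Most were higher within the 5 arrays, where TA_1h 2b alone stands for 1 hour, than within the 7. The median over all tested probe sets was also higher within the 5, at 0.14 against -0.02 within the 7. Within the 7 and the 5 arrays Hadhb differed by -0.08 and 1.54 and Cpt2 by 0.10 and 0.87, while Acot2 went the other way (0.94 and 0.12). Acads, a short-chain acyl-CoA dehydrogenase, read 1347 and 1403 at 1 hour and 1891, 1939, 2839 and 3973 at 6 hours (0.88 ± 0.35). Its 6-hour samples were all above the 1-hour ones, and the difference was 0.23 within the 7 arrays and 1.76 within the 5. The mitochondrial carrier Ucp2 differed by 0.64 ± 0.27, and by 0.19 within the 7 arrays. Acaca and Acacb, the acetyl-CoA carboxylases whose product inhibits carnitine palmitoyltransferase, differed by -0.78 and -0.76. Within the 7 arrays they were at -0.93 and -0.24, and within the 5 at -0.06 and 0.23, so Acacb turned. Lipe, hormone-sensitive lipase, gave 0.51 in its brightest probe set, with -0.06 within the 7 arrays and 1.30 within the 5. Its other probe set gave 1.37, and 0.69 without array TA_1h 2b.

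Of 42 genes of oxidative phosphorylation and the citrate cycle, 0 passed, 0 were higher and 1 lower at an unadjusted p under 0.05, and 35 differences were negative (median -0.21, -0.10 within the 7 arrays and -0.59 within the 5). The complex I subunit Ndufv2 read 23030 and 22800 at 1 hour and 16510, 17980, 13430 and 10480 at 6 hours (-0.68 ± 0.28). It was lower in each 6-hour sample, by -0.20 within the 7 arrays and -1.37 within the 5. The listed Ndufb6 differed by -0.72. Ndufb3, which is not on this list and not in its counts, read 13440 and 16280, then 9556, 9362, 9647 and 6533. Citrate synthase (Cs, -0.59) and Ndufs1 (-0.63) had positive differences within both array sets, 0.06 and 0.67 within the 7 and 0.26 and 0.16 within the 5. Of 29 glycolytic genes and 12 of glycogen metabolism, 0 and 1 (Calm2, lower) had an unadjusted p under 0.05, with medians of -0.07 and -0.01.

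Clock genes differed in opposite directions for Dbp and Bmal1. Dbp, a clock output factor, read 277.9 and 539.5 at 1 hour and 662.3, 2356, 1733 and 1313 at 6 hours. Every 6-hour sample was above both 1-hour samples, although array 1b (389) lay among the 1-hour arrays. The difference was 3.55-fold (log2 1.83 ± 0.53) and 2.02 without array 1b, and the second probe set gave 2.05 ± 0.56. It was 1.74 within the 7 arrays and 1.39 within the 5. Bmal1 read 804.3 and 567.6 at 1 hour and 728.2, 241.4, 65.99 and 68.75 at 6 hours. The groups overlapped through number 1, where array 1 read 386 and array 1b 1375. Its difference was -2.01 ± 0.96, -2.24 without array 1b, and -1.21 in the other probe set. It was -0.87 within the 7 arrays and -2.70 within the 5, and -2.48 between the 5 and the 7. On 3 of the 8 arrays at 6 hours Bmal1 lay at the floor, so its negative difference is a lower limit in size.

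Per2, a core repressor of the clock, lay at the floor on all 1-hour arrays and on 2 of the 8 6-hour arrays (66.38, 234.6, 154 and 122.2 by sample), at least 1.98-fold higher. Nr1d1 and Nr1d2, the nuclear receptors that repress Bmal1, differed by 0.96 ± 0.49 and 0.77 ± 0.67. Nr1d1 was at 0.14 within the 7 arrays and 1.74 within the 5, and Nr1d2 at 1.36 and 0.64. The second probe set of Nr1d1 gave 0.63, with all 6-hour samples above both 1-hour samples. Bhlhe40, another repressor in the loop, differed by -0.73 ± 0.36. Of the 10 tested clock genes, 0 passed, 1 was higher at an unadjusted p under 0.05 and 0 lower, 5 differences were positive and the median was 0.09. Tef, Hlf, Bhlhe41 and Csnk1d lay between -0.36 and 0.20.

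**Figure D4:**
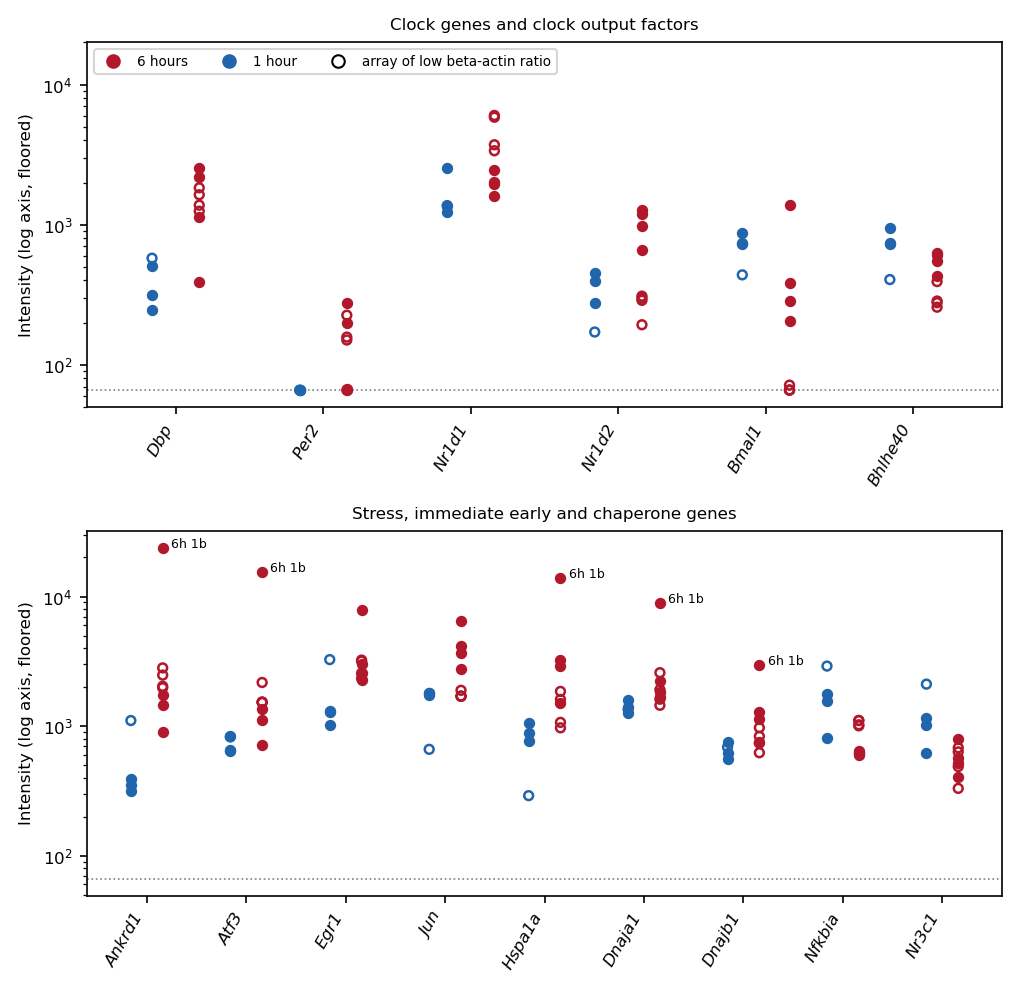
Intensities (log axis, floored at 66.0, dotted line) on each of the 12 arrays for clock genes (top) and for stress, immediate early and chaperone genes (bottom), with 6-hour arrays in red, 1-hour arrays in blue and the 5 arrays of low beta-actin ratio as open points. Array 1b of TA_6h is marked where it lies above all others, at 23780 for Ankrd1 and 15430 for Atf3, and the 6-hour arrays of Dbp other than 1b lie above all 1-hour arrays.

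Stress genes had some of the largest differences, and these rested in part on array 1b. Ankrd1 read 331.3 and 659 at 1 hour and 4644, 1587, 2639 and 2003 at 6 hours. All 6-hour samples were above both 1-hour samples (5.35-fold, log2 2.42 ± 0.48). Without array 1b the difference was 1.83, and without array TA_1h 2b, which read 1104 where the other 1-hour arrays read 314 to 393, it was 2.79. It was 2.91 within the 7 arrays and 1.06 within the 5. Atf3 read 645.8 and 832, then 3321, 1234, 1527 and 1824 (1.33 ± 0.41), and 0.77 without array 1b. Numbers 2 to 4 were thus still above the 1-hour samples, while array 1 (715) was not. Trib3, a pseudokinase induced by nutrient stress, differed by 1.31 ± 0.38 and by 0.77 in its other probe set, yet its arrays 2 and 2b of TA_6h read 913 and 112.

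Egr1 read 1295 and 1824 at 1 hour and 4871, 2409, 2442 and 3202 at 6 hours (1.01 ± 0.35). The difference was 1.58 within the 7 arrays and -0.22 within the 5, where TA_1h 2b read 3261, and the other 3 probe sets gave 0.12 to 0.71. Jun (0.94 ± 0.50) was higher at numbers 1 and 2, and Ccn1, a secreted matrix-binding early gene, differed by -1.08 ± 0.37. The cell cycle inhibitor Cdkn1a differed by 0.99 and 0.78 without array 1b. Of 29 immediate early genes, 0 passed, 2 were higher and 1 lower at an unadjusted p under 0.05, and 19 differences were positive, with a median of 0.27 that was 0.08 within the 7 arrays and 0.07 within the 5. Fos differed by 0.42 and Myc by 0.15.

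Of 31 tested chaperone genes, 0 passed, 2 were higher at an unadjusted p under 0.05 and 0 lower, with 22 positive differences and a median of 0.11. Hspa1a, the stress-inducible chaperone gene of the HSP70 family, read 824.6 and 556 at 1 hour and 4586, 3081, 1725 and 1018 at 6 hours. Its probe set may also read a near-identical copy of the gene. Probe sets that list Hspa1a with another gene are given after the values of this one. The samples did not overlap, and the difference was 3.30-fold (log2 1.72 ± 0.58), 1.32 without array 1b and 1.25 without array TA_1h 2b. The cochaperones Dnaja1 (0.70), Dnajb1 (0.66) and Hsph1 (0.45) differed by 0.40, 0.41 and 0.30 without array 1b. Within the 7 arrays they were at 1.03, 1.12 and 0.16, and within the 5 at 0.45, 0.18 and 0.91. Canx, a chaperone of the endoplasmic reticulum, differed by 0.55 ± 0.20, with its other 4 probe sets between -0.35 and 0.33. The constitutive Hspa5 (-0.01), Hsp90ab1 (-0.03) and Hspd1 (0.02) were near 0.

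On array 1b Dnaja1, Dnajb1 and Hsph1 read 8840, 2944 and 2685, where the highest readings on other TA arrays were 2584, 1276 and 2376. These 3 cochaperone genes, whose windows hold the letters sought, are shown with their start-site sequence. It is from RefSeq, GRCr8, from 200 bases before to 30 bases after the annotated start, 5′ to 3′ on the gene's strand. Capitals mark the letters GAANNTTC, a pair of inverted units of the heat shock element, which reads the same on both strands. Dnaja1 lies at chr5:60638204-60638433 (plus strand), Dnajb1 at chr19:41431112-41431341 (minus strand) and Hsph1 at chr12:10427168-10427397 (plus strand).
Dnaja1: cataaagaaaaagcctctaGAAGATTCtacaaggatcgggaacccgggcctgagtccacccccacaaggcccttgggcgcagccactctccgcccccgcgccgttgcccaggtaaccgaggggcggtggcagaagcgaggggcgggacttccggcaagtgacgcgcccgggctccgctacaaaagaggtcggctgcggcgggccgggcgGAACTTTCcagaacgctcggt
Dnajb1: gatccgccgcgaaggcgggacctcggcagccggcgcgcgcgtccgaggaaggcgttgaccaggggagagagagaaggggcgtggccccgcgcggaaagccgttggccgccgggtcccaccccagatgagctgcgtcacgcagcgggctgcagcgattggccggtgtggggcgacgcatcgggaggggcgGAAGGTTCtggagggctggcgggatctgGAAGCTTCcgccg
Hsph1: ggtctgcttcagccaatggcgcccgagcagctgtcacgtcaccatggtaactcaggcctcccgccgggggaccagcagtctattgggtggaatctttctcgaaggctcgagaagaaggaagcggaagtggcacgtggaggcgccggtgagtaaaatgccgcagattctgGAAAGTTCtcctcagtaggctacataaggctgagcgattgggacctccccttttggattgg
The letters were found in the windows of 10 of the 24 listed chaperone genes that had one (41.7%), and in 9.09% of the 27457 genes of the RefSeq table, over windows of 250 bases before to 50 after a start. The Hspa1a window, looked at along with these, held none and is not shown, although Hspa1a read 14010 on array 1b. The E-box letters CACGTG were in 4 of 8 clock genes with a window (Bhlhe40, Bhlhe41, Nr1d1 and Tef) and in 7.08% of all genes. The windows of Dbp and Per2 held none. A match of letters is a description and not a site.

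Genes of hormone and inflammatory signalling included a pair of lower regulators. Nr3c1, the glucocorticoid receptor, read 1087 and 1140 at 1 hour and 479, 640, 655.7 and 401.6 at 6 hours. The samples did not overlap (2.09-fold lower, log2 -1.06 ± 0.28), but array TA_1h 2b (2108) lay far above 2a (617), and without it the difference was -0.62. Within the 7 arrays it was -0.56 and within the 5 -2.04. The other probe set gave -0.32. Nfkbia, the inhibitor that holds NF-kappa-B in the cytoplasm, read 1668 and 1539 and then 619.6, 618.6, 1014 and 1105 (-0.99 ± 0.32), and -0.53 without array 2b. Its second probe set separated the samples as well, at 1677 and 1265 against 633.1 to 762.8 (-1.04 ± 0.23, -0.91 without array 2b). Of 14 glucocorticoid and stress hormone genes 1 was higher (Pnmt, which makes adrenaline, 0.64 ± 0.25) and 1 lower at an unadjusted p under 0.05.

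Of 42 inflammation genes, 0 passed, and 3 were higher and 1 lower at an unadjusted p under 0.05 (median 0.13). The higher ones include Il6r and Plau, the urokinase protease (0.74 ± 0.25). Il6, Tnf, Ccl3, Ccl5, Cxcl2 and Cxcl10 were too dim to be tested. Among 18 interferon and antigen presentation genes Tap2, a peptide transporter, read 208.8 and 201.1 at 1 hour and 371.2, 403.5, 443.4 and 307.9 at 6 hours (0.88 ± 0.24). The 6-hour samples were all above both 1-hour samples, and it was the only member with an unadjusted p under 0.05. Of 46 genes of proteolysis and atrophy 3 were higher at that level, among them the lysosomal proteases Ctsd (0.69 ± 0.27) and Ctsk (0.62 ± 0.24), at 0.33 and 0.36 within the 7 arrays.

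Fast myosin genes differed in both directions. Myh1, a fast myosin heavy chain, read 1111 and 1276 at 1 hour and 1397 to 2261 at 6 hours (0.65 ± 0.26). Myh2, the fast oxidative one, read 19070 and 15260 at 1 hour and 12650, 9176, 11610 and 7246 at 6 hours (-0.78 ± 0.29). The samples did not overlap for either, while Myh4 (-0.05 ± 0.34) and the slow Myh7 (0.51 ± 0.32, and 1.34 within the 5 arrays) overlapped. Over all probe sets, 2.32% were higher and 1.33% lower at an unadjusted p under 0.05. Of 43 myogenic and growth factor genes, 0 passed, and 4 were higher and 0 lower at that level. Besides Id1 and Id3 these were Dlk1 (1.11 ± 0.34) and Myog (myogenin, 1.00 ± 0.42). Dlk1 read 595 and 266.4, then 811.5, 888.1, 956.9 and 787.9, and its difference was 0.50 without array TA_1h 2b, 0.48 within the 7 arrays and 2.93 within the 5. Among 21 neuromuscular junction and denervation genes Nrg1 (neuregulin 1, 0.92 ± 0.33) and Myog were higher at that level, with the other probe sets of Nrg1 at -0.38 and -0.27. Nrg1 differed by 0.55 within the 7 arrays and 2.03 within the 5, and Myog by 1.21 and 1.49. The samples of Myog overlapped, at 527.5 and 290.2 at 1 hour against 499.5 in 6-hour number 3. Of 32 genes of calcium handling only Calm2, lower, reached an unadjusted p under 0.05.

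Of 24 tested markers of macrophages, mast cells and lymphocytes, 2 were higher at an unadjusted p under 0.05, the Fc receptor Fcgr2b (0.84 ± 0.30) and the complement gene C1qb (0.60 ± 0.25), and their summed intensity per array was 9897 to 14020 at 6 hours and 7941 to 10290 at 1 hour. The mast cell protease Mcpt4 and the T cell genes Cd3d and Cd2 were too dim to be tested. Endothelial markers (15 tested) summed to 7567 to 12440 and 5252 to 11200, smooth muscle and pericyte markers (11) to 33170 to 85880 and 35080 to 88410, and nerve and Schwann cell markers (21) to 13640 to 15360 and 10300 to 15520. Adipocyte markers (20) summed to 27360 to 38520 and 29170 to 33600 and red blood cell markers (7) to 37020 to 54610 and 35750 to 65900. The ranges of the hours overlap for each of these lists. In all of them together 1 further gene, the endothelial selectin Sele (0.57 ± 0.24), had an unadjusted p under 0.05. The part of these cells in the matrix, Il6r and Tap2 differences was not tested.

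**Figure D5:**
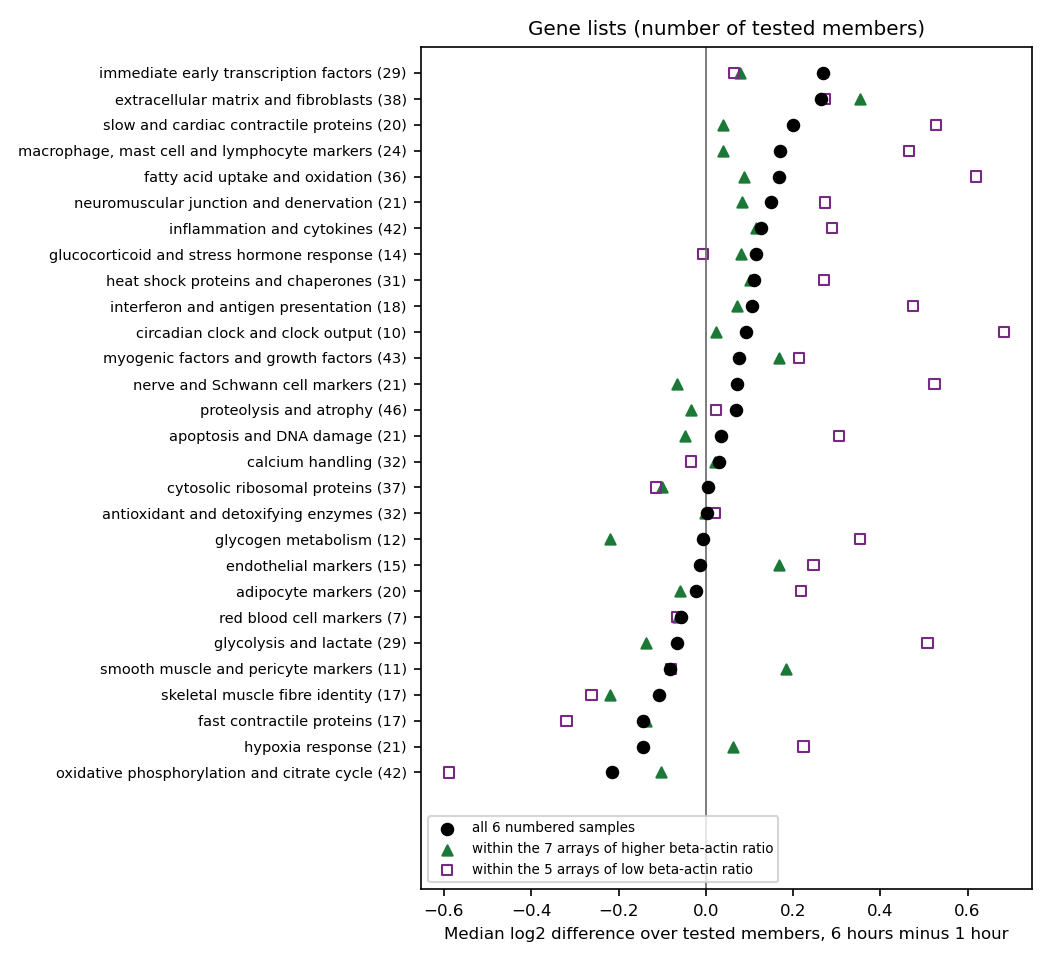
Median log2 difference (6 hours minus 1 hour) over the tested members of each of the 28 gene lists, with the number tested in brackets, over all 6 numbered samples (black), within the 7 arrays of higher beta-actin ratio (green) and within the 5 of low ratio (open squares), where 1 array stands for 1 hour. The matrix list is at 0.26, 0.35 and 0.27 and oxidative phosphorylation at -0.21, -0.10 and -0.59.

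Agreement between the array sets was low for single genes. The sign of the difference was the same within the 7 and within the 5 arrays for 2050 of 4114 genes, close to the even split that unrelated signs would give. Over 2-fold in both sets were 18 genes higher at 6 hours and 5 lower, of the same 4114. How many would be so for unrelated differences was not worked out. L16764_s_at, which lists 2 genes, Hspa1a among them, and so stands for no single gene, was described after its values were seen. It read 978.5 and 1256 at 1 hour and 6100, 5316, 3525 and 3509 at 6 hours, with all 6-hour arrays above all 1-hour arrays. Its difference was 2.01 ± 0.31, 1.62 without array 1b, and 2.29 and 1.62 within the 7 and the 5 arrays. An unlisted probe set, U75405UTR#1_f_at, read 7328 and 7142 and then 18740, 14520, 15990 and 30730 (1.40 ± 0.34), also without overlap of arrays.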

How the data were processed

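The deposited intensities of the 12 TA arrays, 1 linear value per probe set and array, were used as deposited by the authors. The method of summarising probes was not given in the sources used here. The trimmed mean of each array was 801.19 to 801.84, so arrays had been scaled to a common mean. Intensities under 65.99, the 25th percentile of the non-control TA values, were set to that floor before the log2 transform. Probe sets above this floor on at least 4 of 12 arrays were tested (7169 of 8740), controls left out. Arrays of 1 number and hour were averaged on the log2 scale. Differences were tested with limma 3.58.1 (lmFit and eBayes, 4 residual and 3.15 prior degrees of freedom) in R 4.3.3, with Benjamini-Hochberg adjustment over all tested probe sets and calls at an adjusted p under 0.05. Array control ratios were compared by exact permutation. The number of arrays limits the precision.

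Genes were named through GEO's annotation of the platform, in which 7018 probe sets list a single symbol, 308 list several and 1426 are unlisted. A current gene number was found for 6994 of the first kind, and 0 symbols changed. Each gene stands through its brightest tested probe set (4114 genes). Named genes are the 12 with the largest difference in each direction whose arrays do not overlap between the hours and are above the floor in the higher group, up to 6 members of each gene list by absolute difference, and Acta1, Ckm and Myh4 (the rule also lists Mb, for which no probe set was named). Other genes are members of the lists or are said to be chosen after their values were seen; so were the genes named for the array split and for array 1b. The comparison, members and lists were chosen with earlier results of these data known. The fit was tested on simulated data. Other floors, scalings, filters, spread estimates, sample definitions and left-out arrays were tried. The plots were made in Python 3.11.15 with matplotlib 3.10.9.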

Additional observations from a re-analysis of the deposited data

Results flagged for a closer look

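In 6 of 165 named genes 1 of the 4 numbered 6-hour samples lay far from the other 3, no more than the about 1 in 20 groups that chance gives. Number 1 was low for Anxa3, an annexin, at 97.38 against 202.5 to 215.8, and for Cd37, a leukocyte membrane protein, at 134.4 against 161.8 to 166.2. Number 4 was low for the complex I subunit Ndufb3, at 6533 against 9362 to 9647, and high for another complex I subunit, Ndufb6, at 12960 against 6600 to 7365. Number 3 was high for Psmb9, an immunoproteasome subunit, at 322.7 against 196.8 to 197.6. Number 2 was low for Uchl1, a neuronal ubiquitin hydrolase, at 248.4 against 362.9 to 383.1. The groups of 2 at 1 hour are too small for such a check.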

How the results depend on the processing

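The count of 0 called probe sets held in 23 of the 25 other fits, with limma adjusted p-values down to 0.0677 (the low beta-actin ratio as a second term) and 0.0753 (without the 5 arrays of low ratio). It was 0 in each fit that left out 1 numbered sample. With each array as its own sample 1 probe set was called, Cpt1a (limma adjusted p = 0.0371), and 0 once the number was added as a random block. With the number as a replicate block 3 were called, all higher, with 1 residual degree of freedom. These were a probe set of Fmod (3.72), Z27118cds_s_at (4.53) and AA848563_s_at (3.87). Z27118cds_s_at and AA848563_s_at list Hspa1a with another gene, and their samples overlapped between the hours. The numbers were not taken as pairs because no label says that a number marks a shared animal or batch. The deviations of same-numbered samples correlated at 0.403 for number 1 and -0.432 for number 2. With 2 samples at 1 hour their deviations are mirror images, so these values cannot decide on pairing. Of 165 named genes 106 kept their direction in every fit that tested them, among them the 24 with separate arrays, whose choice largely fixes it. The median difference over all probe sets ran from -0.0412 to 0.1355. The fits without array TA_1h 2b and without array TA_6h 1b were chosen after seeing the data. Signals near the floor make the differences of Per2, Anxa3, Cpt1a, Chad, Fmod, Postn, Nrg1, Fcgr2b, Bmal1, Spink1l and Ddb2, among others, lower limits in size.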
